A study of Mus musculus with 6 samples.

Results

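The BCL2 family decides whether a cell opens its mitochondria and dies, and 10 of its genes were followed here in mouse macrophages exposed to oxidised low-density lipoprotein (oxLDL). They were chosen by symbol: Bcl2, Bcl2l1, Mcl1, Bcl2a1b and Bcl2a1d for survival, Bax and Bak1 for the pore itself, and Bbc3, Pmaip1 and Bcl2l11 as BH3-only triggers. All 10 were among the 24054 genes of the deposited tables, and all 10 were among the 11400 with enough reads to be tested. The cells were macrophages grown from the bone marrow of wild-type C57BL/6 mice, cultured for 7 days in medium conditioned by L929 cells. The 3 oxLDL samples received 50 µg/ml oxLDL for 24 hours, and the 3 untreated samples were kept for 24 hours without it. Each group held samples numbered 1, 2 and 3. All titles contain an unexplained word, mix, and nothing states whether a number marks a separate animal or culture. The p-values thus reflect sample-to-sample spread, which may be technical.

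Survival members of the family hold the pore formers BAX and BAK in check at the outer mitochondrial membrane. BH3-only proteins are produced or activated under stress, occupy the groove of the survival members and release the pore formers, after which cytochrome c leaves the mitochondria and caspases are switched on. MCL1 is a short-lived protein on which many myeloid cells depend, A1 (the product of the mouse Bcl2a1 genes, BFL1 in humans) is induced by NF-kB in activated myeloid cells, and BIM (Bcl2l11) is held down by growth factor signalling. Lipoprotein-loaded macrophages die in atherosclerotic plaques, which is where oxLDL is chiefly studied.

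Bcl2a1b and Bcl2a1d are near-identical copies that lie with Bcl2a1a on chromosome 9, and how reads were divided among them bears on every value of these rows. The first 120 coding bases of the 3 copies (GENCODE M21, build GRCm38) are shown because they hold 7 of the 12 positions, of 516, at which the copies differ. Capitals mark those positions.
Bcl2a1a: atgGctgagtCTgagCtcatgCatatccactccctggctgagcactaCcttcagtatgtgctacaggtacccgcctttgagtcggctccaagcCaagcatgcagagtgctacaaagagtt
Bcl2a1b: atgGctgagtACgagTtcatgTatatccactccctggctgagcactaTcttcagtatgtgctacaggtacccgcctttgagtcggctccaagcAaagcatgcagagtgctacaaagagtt
Bcl2a1d: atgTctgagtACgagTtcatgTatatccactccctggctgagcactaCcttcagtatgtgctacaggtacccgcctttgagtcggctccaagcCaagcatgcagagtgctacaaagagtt
The coding sequences of Bcl2a1b and Bcl2a1d were 98.8% identical, those of Bcl2a1a and Bcl2a1b 97.9%, and those of Bcl2a1a and Bcl2a1d 98.6%. Of all 150-base windows of the Bcl2a1b transcript 14.2% also occurred unaltered in another of the 3 transcripts, against 30.3% for Bcl2a1d and 28.2% for Bcl2a1a. The window length was a setting and not a known read length, so these are not shares of reads that could not be placed. The expected counts of Bcl2a1b and Bcl2a1d were not whole in 6 of 6 samples, as were those of Bcl2 and Bcl2l11. Those of Bak1 were not whole in 1 sample, and the remaining 5 members had whole counts throughout (tolerance 0.005).

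Libraries held 13546572 to 15559310 expected counts. Number 3 differed from numbers 1 and 2 in either group: across genes, log2 CPM (reads scaled to a common library size) gave r = 0.984 between untreated samples 1 and 2, and 0.889 and 0.897 between each of them and untreated sample 3. Values of the members are therefore given by sample, and the tests also without number 3. Several genes of the related lists below are given only as mean ± SD. Cd68, Csf1r and Emr1 (F4/80), which mark macrophages, were abundant in every sample, at 746 CPM or more for Cd68, 905 CPM or more for Csf1r and 448 CPM or more for Emr1. The summed macrophage markers, 10 genes in the tables, were nevertheless lower with oxLDL in every pair, at 38884, 29921 and 15208.5 CPM untreated and 19777, 12173 and 13740 CPM with oxLDL. Lyz2 was the largest part of that sum in every sample, at 4320 to 19463 CPM. Of these 10, Fcgr1 and Spi1 fell in edgeR's test with the sample number as a block (adjusted p = 0.0287 and 0.0302), and Emr1 measured 9233, 6559 and 3057 CPM untreated and 1349, 448 and 2516 CPM with oxLDL. Itgam and Lyz2 were also lower in every pair. Cd68 (746, 1094 and 1183 CPM untreated, 1609, 1634 and 1337 CPM with oxLDL) and Lamp1 were higher in every pair. Csf1r, Cd14 and Mertk had pairs of opposite sign. The summed neutrophil markers, also 10 genes, were lower with oxLDL (77.0 to 108 CPM) than without it (192 to 262 CPM). Csf3r, the G-CSF receptor, held most of that sum, and the others ranged from 0 to 13.6 CPM, the highest being S100a9 in untreated sample 2. The B cell sum was 3.45 to 38.3 CPM untreated and 1.75 to 9.53 CPM with oxLDL, nearly all of it Cd79b, and the T cell sum was 8.45 to 31.0 and 6.63 to 16.5 CPM, mostly Cd4, while Cd3d, Cd3e and Cd3g, of the T cell receptor's CD3 complex, stayed at or below 0.146 CPM. The dendritic cell sum was 4.38 to 8.78 CPM untreated and 3.56 to 15.5 CPM with oxLDL, highest in number 3 of each group. Ccr7 measured 6.96 CPM in untreated sample 3 and 12.1 CPM in oxLDL sample 3, and at most 2.39 CPM in the others. Fibroblast, red cell and NK cell sums did not exceed 0.510 CPM. The part of these shifts in the values of the members was not tested.

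None of the 10 members passed an adjusted p of 0.05 in edgeR's quasi-likelihood test, either with group as the only term or with the sample number as a block. Those fits called 0% and 5.89% of all genes tested. DESeq2 without a block called 0 members as well, and 7.66% of genes. Within that limit the members differed in pattern. Bcl2 was higher in all 3 oxLDL samples than in any untreated sample, narrowly over untreated sample 3, Bak1 and Pmaip1 were lower in all 3, and Bcl2l11 was lower in every numbered pair. The Bcl2a1 genes parted number 3 from numbers 1 and 2 in both groups, and Mcl1, Bcl2l1, Bax and Bbc3 had pairs of opposite sign. Groups did not overlap for 3 of 10 members (1 higher, 2 lower), near the 21.0% of all genes tested (10.8% higher, 10.2% lower). Unadjusted p was under 0.05 for 1 member without the block (background 14.7%) and 4 with it (background 29.0%). The median log2 fold change of the members was -0.17 without the block and -0.22 with it, beside 0.01 in both fits for all genes tested. By pair the members' median log2 ratio was -0.26, -0.39 and 0.02, so pair 3 did not share the lean to lower values. For all genes tested it was 0.01, 0.01 and -0.02.

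**Figure D1:**
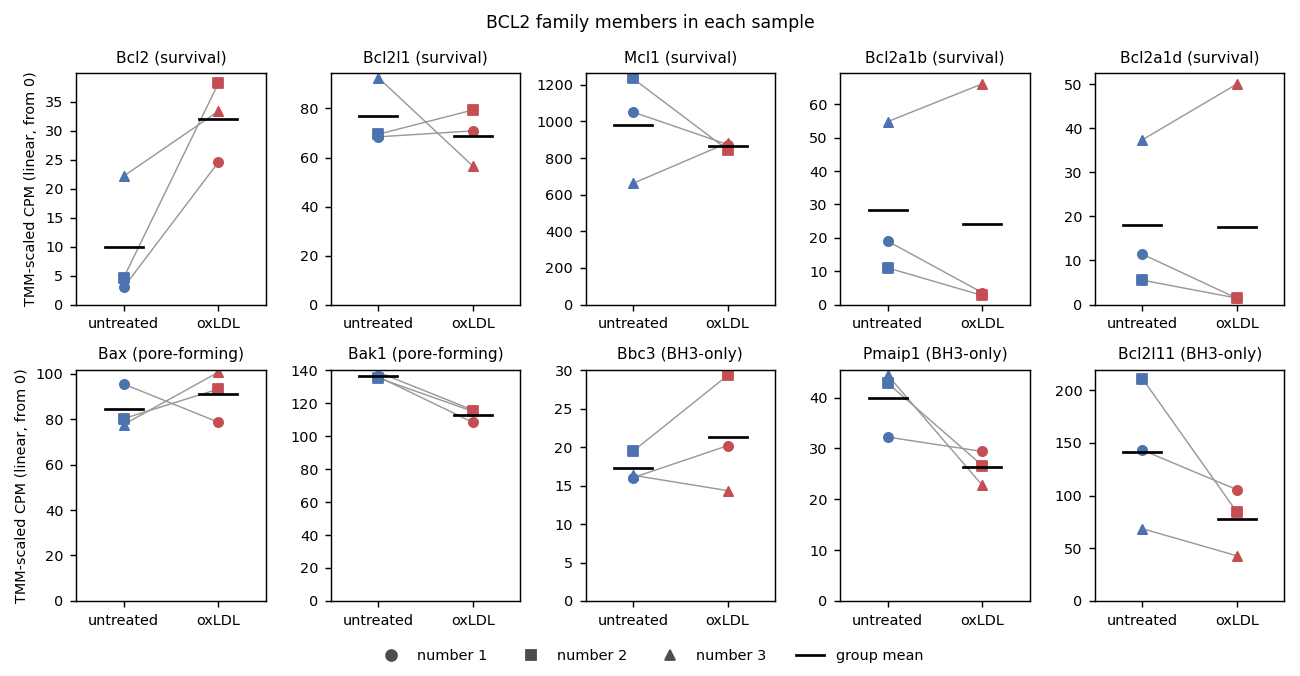
TMM-scaled CPM of the 10 members on linear axes that start at 0, in 3 untreated and 3 oxLDL samples. Grey lines join samples of the same number and black bars are group means. The groups are apart for Bcl2, Bak1 and Pmaip1, and number 3 lies far above the rest for Bcl2a1b and Bcl2a1d.

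Among the survival genes, Bcl2, the founding member of the family, had levels of 2.96, 4.60 and 22.2 CPM without oxLDL, in the order of samples 1, 2 and 3 that is kept throughout, and of 24.6, 38.2 and 33.4 CPM with it. The groups did not overlap, but untreated sample 3 lay close to oxLDL sample 1, and the ratios of oxLDL to untreated were 8.30, 8.30 and 1.51 in pairs 1, 2 and 3. The means were 9.91 ± 10.6 and 32.0 ± 6.90 CPM (SD, n = 3), and the depth behind them was low in places, with 43.01 expected counts in untreated sample 1 and 575.12 in oxLDL sample 2. The log2 fold change was 1.68 ± 0.78 without the block (SE; edgeR adjusted p = 0.386) and 2.17 ± 0.60 with it (edgeR adjusted p = 0.0986). Without untreated sample 3 it was 3.09 ± 0.32, which passed (edgeR adjusted p = 0.0204; 6.34% of genes passed there). DESeq2 with the block also called it higher (2.24 ± 0.51, adjusted p = 2.04e-04), in a fit that called 3 of 10 members and 16.3% of genes. In bulk RNA, more cells that express a gene and more RNA per cell cannot be told apart.

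Kit, the receptor for stem cell factor, was listed as a mast cell marker and lay on the same pattern as Bcl2, at 2.68, 7.55 and 21.7 CPM untreated and 23.1, 26.1 and 36.5 CPM with oxLDL. The other 5 mast cell and basophil markers, Cpa3 and Fcer1a among them, stayed at or below 0.473 CPM in all 6 samples, and Kit held most of the summed level of that list (3.03, 7.69 and 22.6 CPM untreated, 23.4, 26.6 and 36.8 CPM with oxLDL). The part of Kit-expressing cells in the Bcl2 values was not tested. By the root mean square difference of centred log2 CPM over the 6 samples, the 3 tested genes most like Bcl2 were Slc22a4 (0.18), Gadd45a (0.18) and Rai14 (0.18), where Bcl2 itself had an SD of 1.55. Gadd45a, a stress gene that responds to DNA damage, measured 5.65, 10.7 and 51.7 CPM untreated and 44.3, 62.9 and 64.8 CPM with oxLDL.

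Mcl1 was the most abundant member by far. Untreated samples held 1051, 1234 and 662 CPM, and treated samples 874, 845 and 883 CPM. The oxLDL samples lay within a narrow band inside the range of the untreated samples. The ratios were 0.831, 0.684 and 1.33 in the pairs, so numbers 1 and 2 were lower with oxLDL and number 3 was higher. The log2 fold change was -0.18 ± 0.27 (SE; edgeR adjusted p = 0.796), or -0.13 ± 0.24 in the blocked fit (edgeR adjusted p = 0.743). Genes nearest to its profile were Lrrc61 (root mean square difference 0.053 on the log2 scale), Aldh16a1 (0.057) and Zfp839 (0.063), against an SD of 0.30 for Mcl1.

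Bcl2l1, whose main product is the long-lived survival protein BCL-XL, measured 68.4, 69.5 and 92.6 CPM untreated and 70.9, 79.4 and 56.5 CPM with oxLDL. The highest and the lowest of the 6 values were both those of number 3, untreated and treated. Its log2 fold change was -0.16 ± 0.20 (SE; edgeR adjusted p = 0.758), and -0.16 ± 0.21 with the block (edgeR adjusted p = 0.664). The tables count genes, so the long and short splice forms, which act in opposite directions, could not be separated.

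The Bcl2a1 genes had the widest spread of the family. Bcl2a1b measured 19.0, 10.99 and 54.8 CPM in the untreated samples and 3.56, 2.72 and 66.1 CPM in the treated samples. Bcl2a1d measured 11.4, 5.53 and 37.4 CPM untreated and 1.41, 1.46 and 50.0 CPM with oxLDL. In pairs 1 and 2 the treated sample held far less than the untreated sample, while in pair 3 it held slightly more. The ratios were 0.187, 0.248 and 1.21 for Bcl2a1b and 0.123, 0.264 and 1.34 for Bcl2a1d. Fitted log2 fold changes were accordingly loose: -0.24 ± 1.32 for Bcl2a1b (SE; edgeR adjusted p = 0.951) and -0.06 ± 1.49 for Bcl2a1d (edgeR adjusted p = 0.990). With the block they were -1.28 ± 0.59 and -1.26 ± 0.72 (edgeR adjusted p = 0.234 and 0.314). DESeq2 with the block called Bcl2a1b lower (-1.41 ± 0.51, adjusted p = 0.0367).

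With pair 3 left out, the blocked edgeR fit called 3 of 10 members, where it called 29.7% of all genes tested. Bcl2 was higher (3.06 ± 0.16, adjusted p = 7.75e-04), and Bcl2a1b (-2.22 ± 0.22, adjusted p = 0.00269) and Bcl2a1d (-2.48 ± 0.35, adjusted p = 0.00707) were lower. Without the block, leaving out pair 3 gave 4 members (the same 3 and Bcl2l11, -0.89 ± 0.23, edgeR adjusted p = 0.0403) and 27.1% of genes. With pair 1 or pair 2 left out the blocked fit called 0 members and 0 genes, with 1613 and 1617 genes at an unadjusted p under 0.05. Each numbered pair had a single library per group, so whether the response of these genes differed between pairs was not tested.

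Bcl2a1a, the third copy, was no member but followed the same course, with 6.26, 2.30 and 19.1 CPM untreated and 0.604, 0.465 and 25.3 CPM with oxLDL. Bcl2a1c, which lies apart from the others, had 0 to 12 expected counts and was not tested. Summed over the 4 rows, which removes the division of reads among copies, expected counts were 535.99, 261.99 and 1656.99 untreated and 83.01, 70 and 1955.00 with oxLDL. The sum thus separated the samples in the same way as the single rows. Its log2 fold change was -0.15 ± 1.42 (SE; edgeR adjusted p = 0.974), and -1.41 ± 0.66 with the block (edgeR adjusted p = 0.239). Bcl2a1b took 46.4% to 63.5% of the sum in a sample. Birc3, an inhibitor of apoptosis that NF-kB induces, also had its highest value in oxLDL sample 3 (193 CPM) and its lowest in oxLDL samples 1 and 2 (49.7 and 43.7 CPM), with 137, 114 and 160 CPM untreated.

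**Figure D2:**
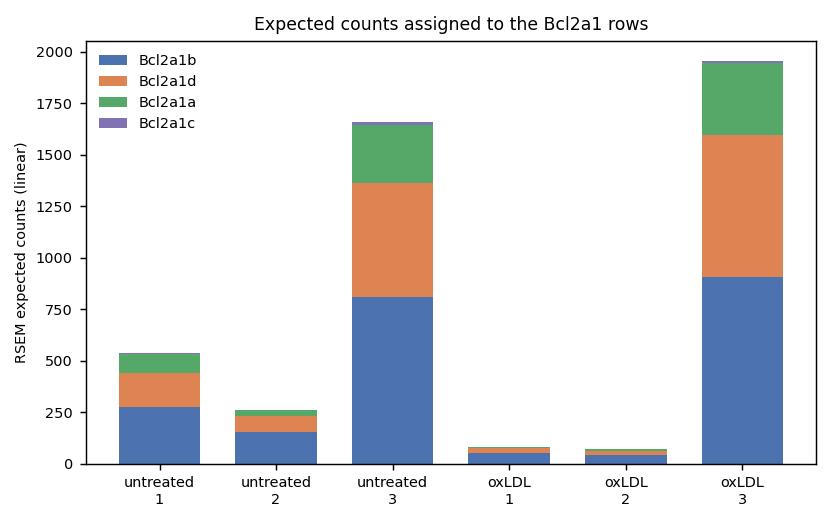
RSEM expected counts on the rows of the 4 Bcl2a1 genes, stacked on a linear axis, in each of the 6 samples. The sums of the samples numbered 3, 1656.99 and 1955.00, exceed those of the other 4 samples (70 to 535.99).

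The pore formers varied little between samples. Bak1, the BAK protein resident on mitochondria, measured 136, 135 and 139 CPM untreated and 108, 115 and 116 CPM with oxLDL. All 3 oxLDL samples lay under all 3 untreated samples, with like ratios of 0.796, 0.850 and 0.834. Group means of 137 ± 1.86 and 113 ± 4.09 CPM (SD, n = 3) gave a small difference. On the log2 scale this came to -0.28 ± 0.12 and missed the threshold (SE; edgeR adjusted p = 0.360; -0.28 ± 0.11 and adjusted p = 0.170 with the block). Bax, its cytosolic counterpart and a p53 target, measured 95.4, 80.2 and 77.6 CPM untreated and 78.6, 93.2 and 101 CPM with oxLDL. The groups overlapped and pair 1 went the opposite way to pairs 2 and 3. Its log2 fold change was 0.11 ± 0.15 (SE; edgeR adjusted p = 0.791).

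The BH3-only genes divided. Bcl2l11, which encodes BIM, measured 143, 211 and 68.6 CPM untreated and 106, 84.2 and 42.8 CPM with oxLDL. Each treated sample held less than its untreated partner, at ratios of 0.737, 0.399 and 0.624, but number 3 was lowest in both groups and the groups overlapped. The log2 fold change was -0.86 ± 0.50 without the block (SE; edgeR adjusted p = 0.481) and -0.82 ± 0.20 with it, at the smallest adjusted p of the members in that fit (0.0811, edgeR). DESeq2 with the block called it lower (-0.83 ± 0.25, adjusted p = 0.00857). Leaving out untreated sample 2 brought the unblocked log2 fold change to -0.45, and leaving out oxLDL sample 3 to -0.57. The markers of cycling cells, 6 genes such as Mki67 and Top2a, were summed as well. That sum was 292, 296 and 102 CPM untreated and 216, 93.5 and 94.0 CPM with oxLDL, little changed in pair 3. Mki67, Top2a, Cdk1 and Aurkb were lower with oxLDL in every pair, while Ccnb1 was higher in pair 1 and Bub1 in pair 3. The part of cycling cells in the Bcl2l11 values was not tested. The tested genes nearest to Bcl2l11 were Fbxo5 (root mean square difference 0.10 on the log2 scale), Degs2 (0.12) and 5430427O19Rik (0.13), against an SD of 0.81 for Bcl2l11. Fbxo5 encodes a cell cycle inhibitor of the anaphase-promoting complex.

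Pmaip1 encodes NOXA, the BH3-only partner of MCL1 and A1. It measured 32.2, 42.8 and 44.4 CPM untreated and 29.4, 26.6 and 22.7 CPM with oxLDL. The groups did not overlap, and the ratios ran from 0.912 in pair 1 to 0.621 and 0.512 in pairs 2 and 3. With a log2 fold change of -0.60 ± 0.19 it had the smallest unadjusted p of the members without the block (0.0179, edgeR), but did not pass after adjustment (edgeR adjusted p = 0.228; 0.131 in the blocked fit). Bbc3 encodes PUMA, a p53 target that binds every survival member. It measured 16.04, 19.5 and 16.4 CPM untreated and 20.2, 29.3 and 14.3 CPM with oxLDL, so pairs 1 and 2 were higher with oxLDL and pair 3 lower. Its log2 fold change was 0.30 ± 0.28 (SE; edgeR adjusted p = 0.666).

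**Figure D3:**
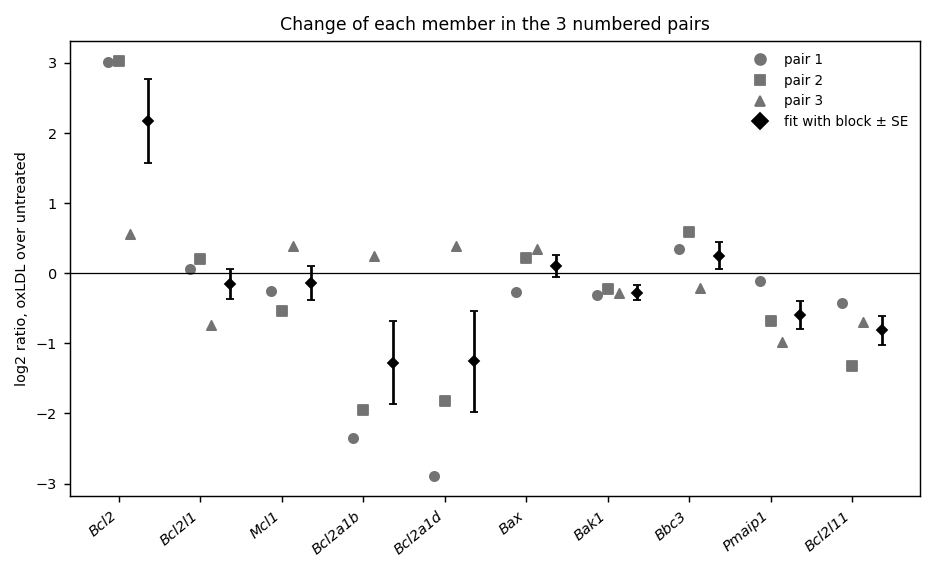
Log2 ratio of oxLDL over untreated for the 10 members in each numbered pair (grey symbols), and the log2 fold change ± SE of edgeR's fit with the number as a block (black). Bcl2 lies above 0 in all 3 pairs, Bak1, Pmaip1 and Bcl2l11 lie below 0 in all 3, and the other 6 have pairs of opposite sign.

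The sign of the ratio was the same in all 3 pairs for Bcl2, Bak1, Pmaip1 and Bcl2l11, 4 of the 10 members, while 53.3% of all genes tested had such a pattern. Set per kilobase of exon (GENCODE M21 union of exons, which may not be the annotation behind the counts), the mean levels of untreated samples placed Mcl1 first at 287 CPM per kb, followed by Bak1 (56.8), Bax (53.6), Bcl2a1b (34.6), Bcl2a1d (21.0), Bcl2l11 (17.6), Bcl2l1 (16.8), Pmaip1 (14.6), Bbc3 (8.14) and Bcl2 (1.08). Mcl1 at its lowest (194) stood above every other member, and Bcl2 at its highest (2.42) stood below Bbc3 at its lowest (7.55). The neighbours between them overlapped in their ranges, apart from Pmaip1 and Bbc3. With oxLDL, Mcl1 remained first (254 CPM per kb), and Bcl2 had 3.50 on the same scale, the lowest mean of the 10. By sample it was lowest in oxLDL sample 3 but not in oxLDL samples 1 and 2, where Bcl2a1d was lower (1.63 and 1.69 against 2.68 and 4.17 for Bcl2) and, in sample 2, Bcl2a1b too (3.33). Bax (57.6) and Bak1 (46.9) were apart there, with a lowest Bax sample of 49.9 and a highest Bak1 sample of 48.1.

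Ratios of counts within a sample do not depend on how libraries are scaled. The ratio of Bcl2 to Bax was 0.0310, 0.0573 and 0.286 in untreated samples 1, 2 and 3 and 0.312, 0.410 and 0.332 with oxLDL. It was higher in every treated sample than in any untreated sample, with untreated sample 3 again close to the treated ones. The ratio of Bcl2l1 to Bax was 0.717, 0.866 and 1.19 untreated and 0.901, 0.852 and 0.561 with oxLDL. Its groups overlapped, and it was higher with oxLDL in pair 1 and lower in pairs 2 and 3. The ratio of Bcl2l11 to Mcl1 was 0.136, 0.171 and 0.104 untreated and 0.121, 0.0997 and 0.0485 with oxLDL. It was lower in each treated sample than in its partner, although the groups overlapped.

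The promoter search covered 9 of 10 members. The remaining member was left out, so the match counts below do not speak to it. There were 14 windows, from 250 bases before to 50 after an annotated start (RefSeq, GRCm38.p6). In these windows 6 motifs were searched on both strands. A loose AP-1 pattern, TGANTCA with any base at N, occurred in 2 of the 14 windows, those of Bcl2a1b and Bcl2a1d. It occurred in 7.81% of all 32851 promoter windows. Both matches read TGAATCA, with A at the open position. The genes are near-identical copies, so the 2 matches are not independent, and Bcl2a1a had a match 120 bases before its start. The bases before the start of both genes are printed because both members were high in number 3 and low in oxLDL samples 1 and 2, and capitals mark the match.
Bcl2a1b, chr9:89199023-89199272, plus strand: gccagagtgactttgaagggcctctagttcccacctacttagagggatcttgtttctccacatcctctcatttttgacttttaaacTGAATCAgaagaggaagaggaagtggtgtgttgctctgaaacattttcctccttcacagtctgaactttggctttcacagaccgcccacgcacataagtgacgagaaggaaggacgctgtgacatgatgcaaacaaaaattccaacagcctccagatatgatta
Bcl2a1d, chr9:88731851-88732100, minus strand: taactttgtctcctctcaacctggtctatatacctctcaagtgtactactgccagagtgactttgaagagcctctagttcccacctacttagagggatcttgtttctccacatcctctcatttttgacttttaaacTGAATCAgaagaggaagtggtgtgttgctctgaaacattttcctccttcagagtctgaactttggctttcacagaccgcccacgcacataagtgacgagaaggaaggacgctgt
The match began 164 bases before the start of Bcl2a1b and 114 bases before that of Bcl2a1d. The FOXO motif GTAAACA occurred in windows of Bcl2l11 and Bbc3, and in 3.65% of all windows. The Bcl2l11 sequence before its more upstream start is printed with the match in capitals.
Bcl2l11, chr2:128125788-128126037, plus strand: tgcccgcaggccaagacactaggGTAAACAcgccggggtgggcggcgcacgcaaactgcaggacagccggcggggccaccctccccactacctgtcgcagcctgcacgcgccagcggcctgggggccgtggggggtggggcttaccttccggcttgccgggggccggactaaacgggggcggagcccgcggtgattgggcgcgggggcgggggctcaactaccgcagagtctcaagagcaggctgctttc
A kappaB motif (GGG, any 2 bases, TTTCC) occurred in windows of Mcl1, Bcl2l1 and Bbc3 (1.63% of all windows). The antioxidant response element core TGACNNNGC occurred in 1 window, of Bcl2l1 (12.4% of all windows). The interferon-stimulated response element (GAAA, any 2 bases, GAAA; 3.44%) and the cyclic AMP response element TGACGTCA (1.79%) occurred in 0 of the 14. The motifs searched share no match position in these windows, and a match is a run of letters only.

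Other genes of the mitochondrial death pathway and its control were taken from 6 lists of 89 genes, of which 80 were tested. With the block 3 of them fell and 0 rose, against backgrounds of 3.98% and 1.91% of all genes tested, and without the block 0 passed (5 had an unadjusted p under 0.05, where 14.7% of all genes did, and DESeq2 called 2, where it called 7.66% of all genes). These 3 were Pik3cd, Gsdmd and Cflar. Their calls were lost with pair 1 or pair 2 left out, as were all others. The median log2 fold change of the 80 was -0.11 in both fits, and by pair their median log2 ratio was -0.17, -0.18 and 0.03.

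Pik3cd, the leukocyte catalytic subunit of PI3-kinase, upstream of AKT, fell from 156 ± 87.9 to 66.7 ± 31.0 CPM (SD, n = 3; log2 fold change -1.13 ± 0.16 with the block, edgeR adjusted p = 0.0362 with the block and 0.416 without it). Its groups overlapped, with untreated sample 3 at 56.0 CPM and oxLDL samples 1 and 2 at 93.8 and 73.4 CPM. Pik3cd was the only call among 16 genes of FOXO, AKT and ERK control of BH3-only genes. Akt1, a survival kinase, measured 193 ± 50.0 and 217 ± 16.9 CPM and did not pass. Gsdmd, the pore protein of pyroptosis, fell from 95.5, 103 and 76.4 CPM to 49.6, 48.2 and 51.9 CPM, with groups that did not overlap (-0.87 ± 0.14, edgeR adjusted p = 0.0422 with the block and 0.0952 without it). Cflar encodes cFLIP, which blocks caspase-8. It fell from 335, 273 and 887 CPM to 174, 174 and 494 CPM (-0.81 ± 0.14, edgeR adjusted p = 0.0495 with the block and 0.588 without it), and its row had fractional counts in 6 samples. Gsdmd and Cflar were the calls among 12 other cell death genes. Acsl4, an enzyme of ferroptosis, measured 238 ± 32.9 and 258 ± 89.5 CPM, and Ninj1, which ruptures the plasma membrane late in death, measured 191 ± 122 and 301 ± 65.9 CPM.

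The remaining 4 lists had 0 calls in either edgeR fit. Of 16 other BCL2 relatives 9 were tested, with a median log2 fold change of 0.16 with the block and 3 genes higher at an unadjusted p under 0.05 (background in that fit 13.3% higher, 15.7% lower). The mitophagy receptor Bnip3l measured 110, 125 and 188 CPM untreated and 166, 177 and 304 CPM with oxLDL (0.60 ± 0.12, edgeR adjusted p = 0.0560 with the block), and the BH3-only gene Bid measured 65.9 ± 10.6 and 71.1 ± 7.84 CPM. The median was -0.20 for 18 genes of the apoptosome and caspases, where 5 genes had all oxLDL samples below all untreated samples (background 10.2%) and, at an unadjusted p under 0.05, 1 gene was higher and 3 lower, near the 13.3% and 15.7% of all genes. By pair the median log2 ratio of this list was -0.19, -0.21 and -0.01. Xiap, a direct caspase inhibitor, measured 139 ± 22.6 and 131 ± 9.01 CPM there. Of 18 genes of p53 and its targets 17 were tested, with a median of -0.30 and 6 genes lower at an unadjusted p under 0.05 (background 15.7%). Their median log2 ratio by pair was -0.48, -0.51 and -0.02. Cdkn1a, the cell cycle inhibitor p21, measured 616, 436 and 178 CPM untreated and 228, 215 and 214 CPM with oxLDL. Mdm2, the ubiquitin ligase of p53, measured 189, 169 and 635 CPM untreated and 238, 244 and 495 CPM with oxLDL. The 8 tested genes of MCL1 turnover had a median of 0.04 and 1 gene higher at an unadjusted p under 0.05 (background 13.3%), with Huwe1, a ubiquitin ligase of MCL1, at 404 ± 75.4 and 435 ± 12.4 CPM and its deubiquitinase Usp9x at 409 ± 58.4 and 433 ± 21.5 CPM.

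**Figure D4:**
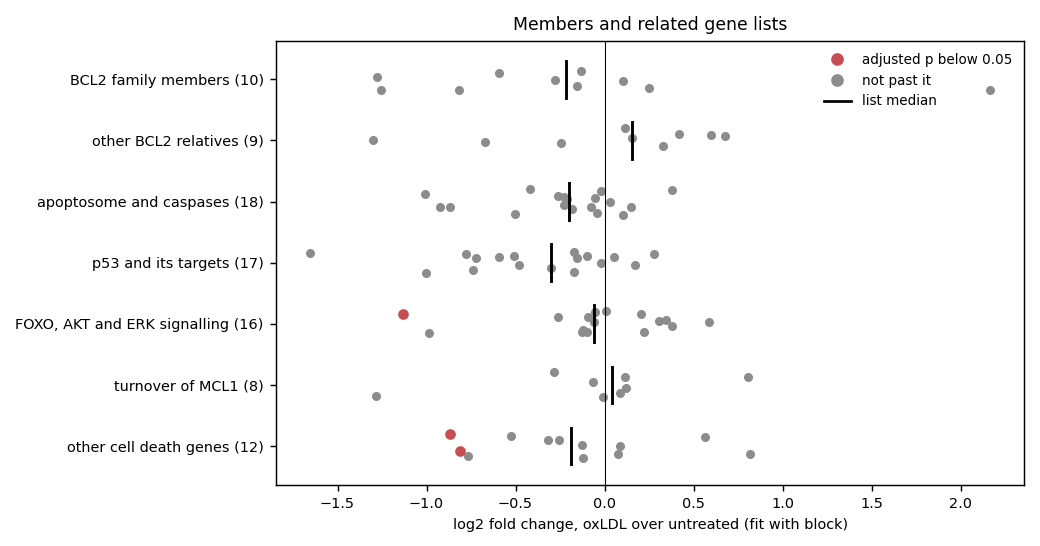
Log2 fold change, oxLDL over untreated, from edgeR's fit with the number as a block, for each tested gene of the BCL2 family and of 6 related lists (number tested in brackets). Black bars are list medians and red points passed an adjusted p of 0.05. Red points occur for Pik3cd, Gsdmd and Cflar, and none of the 10 members is red.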

How the data were processed

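Bulk poly(A) RNA of 6 samples was sequenced. The deposited expected counts came from RSEM, as the file's name says. Per the submitters' processing notes, Bowtie2 2.1.0, RSEM 1.2.15 and edgeR were used. A second deposited table holds a scaled signal that its name describes as TMM-normalised CPM, and levels are printed from it. Divided by the value of a single read, 100% of values came out whole (tolerance 0.005) and 100% equalled the rounded expected counts, so that the count test on them called the same numbers, 0 without the block and 672 with it. The notes name the human build hg19 although symbols are mouse, and the annotation and strand setting are not given in the sources used here. Between 10.4% and 11.1% of expected counts were not whole. Stranded libraries counted without strand would mix a gene with its antisense partner.

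Expected counts were rounded, filtered with filterByExpr (minimum count 10, minimum total 15) and scaled with TMM. Differences were tested with edgeR 4.0.16's quasi-likelihood test (robust, R 4.3.3), group as the only term, with Benjamini-Hochberg adjustment over all 11400 genes and a threshold of 0.05. Each edgeR SE is the size of the log2 fold change divided by the square root of F, and each DESeq2 SE is the one DESeq2 reports. The same fit with the sample number as a block is printed beside it. Across genes, log2 deviations from the group means gave r = 0.66, 0.45 and 0.70 for numbers 1, 2 and 3, above the pairing limit of 0.1. Unlike numbers 2 (untreated) and 1 (oxLDL) also correlated, at 0.63, above the 0.45 of number 2 with itself. Number 3 stood apart in both groups, so these values cannot establish that numbers 1 and 2 are pairs. Log2 ratios of pairs use a prior count of 2. DESeq2 1.42.0 and limma 3.58.1 were alternatives. The members and lists were chosen with earlier results of these data known. Every member is named. Of each list, genes past the threshold in either fit are named (at most 5) with the 2 of highest mean CPM that did not pass, and Bcl2a1a and Bcl2a1c always. A gene that this rule names is not reported here. Of the alternatives, the recovered reads and the group-only fits without a pair were chosen after seeing the data.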

Additional observations from a re-analysis of the deposited data

How the results depend on the processing

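The count of members past the threshold was 0 in edgeR without and with the replicate block, and also under DESeq2 size factors, no filter, unrounded counts, limma-voom, DESeq2 without the block and limma on the authors' CPM. It was 3 in DESeq2 with the replicate block (Bcl2, Bcl2a1b, Bcl2l11). Leaving out samples gave 0 to 4 without the block and 0 to 3 with it, where the values above 0 came without untreated sample 3 (1) or without pair 3 (4 without the block, 3 with it). Counts over all genes, 0 in edgeR without the block, were 672 with the replicate block, 873 in DESeq2 and 1853 in DESeq2 with the block, 10 in limma-voom and 926 with the block. They were 689 with size factors and block, 8 without a filter and 791 with the block, 678 unrounded with the block, and 11 from limma on the authors' CPM and 838 with the block. Leaving out 1 sample gave 0 to 737 (31 without oxLDL sample 3), and leaving out a pair 0 to 3132 without the block and 0 to 3424 with it. For the 80 list genes the same fits gave 3 with the block, 2 and 13 in DESeq2 without and with it, 6 in limma-voom with it, 3 with size factors and block, 5 without a filter with it, 3 unrounded with it and 5 from limma on the authors' CPM with it, and 0 to 22 and 0 to 26 when samples were left out. The reads recovered from the authors' CPM gave 672 genes, 0 members and 3 list genes with the block.

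Signs of Bcl2, Bak1, Pmaip1 and Bcl2l11 were the same in all alternatives run. Reversed signs came when samples were left out. Without untreated sample 3 the log2 fold changes were 0.0064 for Bcl2l1, 0.69 for Bcl2a1b and 1.06 for Bcl2a1d, without oxLDL sample 1 they were 0.26 and 0.48 for Bcl2a1b and Bcl2a1d, and without oxLDL sample 2 they were 0.28, 0.48 and, for Bbc3, -0.0066. Mcl1 reached 0.015 without untreated sample 2, and 0.070 with the block and 0.035 without it when pair 2 was left out, where Bcl2a1d had 0.056. Without pair 1 Bcl2a1b and Bcl2a1d had 0.035 and 0.23 without the block. Without pair 3 Bcl2l1 had 0.13 and Bax -0.022 with the block, and 0.13 and -0.021 without it. With 1 sample left out the ranges were -0.28 to 0.0064 for Bcl2l1, -0.39 to 0.015 for Mcl1, -3.18 to 0.69 for Bcl2a1b, -3.67 to 1.06 for Bcl2a1d and -0.0066 to 0.51 for Bbc3. Bcl2l11 moved between -1.19 (without untreated sample 3) and -0.45 (without untreated sample 2), with -0.57 without oxLDL sample 3, and Bcl2 between 1.23 (without untreated sample 1) and 3.09 (without untreated sample 3). The cause was not tested. Counts under 100 in single samples limit the precision of Bcl2, Bcl2a1b and Bcl2a1d, and 3 samples a group allow no exact permutation p below 0.1.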
